A study of Mus musculus with 9 samples.

Results

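Homozygous loss of Sfpq was compared with control in the embryonic mouse cerebral cortex at E13.5, when radial glia are still dividing and early-born neurons have begun to settle. The comparison took 6 of the 9 libraries of the series, 3 titled control and 3 titled as homozygous Sfpq knockout, and all RefSeq transcripts whose mean over these 6 libraries reached 0.5 RPKM. RPKM is a read count scaled by transcript length and by library size. Of 30978 transcripts in the files, 17745 passed this filter. With 1 transcript kept for each gene, 12170 genes were tested, of which 10420 span under 100 kb of genome and 1750 at least 100 kb. The strain is labelled C57BL/6+C57BL/6J+CBA in both groups, the cells are labelled as neuronal stem cells with neurons, and the study's design names 3 embryos of each genotype; p-values therefore measure the spread between these libraries, and litters are not given. The genotype labels are control and sfpq_homo_KO. The sources used here do not say how the allele was made, in which cells it acts or which alleles the controls carry.

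Sfpq (also called PSF) is a nuclear protein that binds RNA and DNA and belongs to the DBHS family with Nono and Pspc1. These proteins form dimers, sit in nuclear bodies called paraspeckles, and take part in transcription, splicing and the retention of RNA in the nucleus. In developing neurons Sfpq is best known for the expression of genes of very large span. The genes described here are mainly those under 100 kb, grouped by the function of their products, so that changes outside the long neuronal genes can be seen.

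Sfpq had values of 168, 187 and 201 RPKM in control and of 23.8, 25.7 and 25.4 RPKM after homozygous loss. The groups did not overlap and every homozygous library held a similar remainder. The log2 change, always homozygous minus control on the log2(RPKM + 0.5) scale, was -2.86 ± 0.07 (SE, limma adjusted p = 6.36e-08). On the RPKM values an exact two-sided permutation test returned p = 0.1, and no smaller p can be had from 3 against 3 libraries. The deleted part of the gene is not stated in the labels, and reads of a part that is kept would still be counted.

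The cortical label was checked with Emx1, found at 59.1 to 79.9 RPKM in control and 40.8 to 47.1 RPKM in homozygous libraries, and with Pax6, Neurod6 and Eomes, found above 18 RPKM in all 6. Hox genes, which mark the hindbrain and spinal cord, were nearly absent: 28 of 29 stayed under 0.1 RPKM in every library. Depth, estimated from the steps between low values, ranged over the 6 libraries from about 169.5 M to 204.5 M reads. No pair of libraries held the same values: within a group, log2 differences had an SD of 0.154 or more.

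Among genes under 100 kb, falls and rises were almost equally frequent: 1540 were called lower (14.8%) and 1417 higher (13.6%) at a limma adjusted p below 0.05, and the median log2 change was 0.01. Genes of at least 100 kb were more one-sided, with 706 called lower (40.3%), 178 higher (10.2%) and a median of -0.13. Falls of at least 2-fold were called for 66 genes under 100 kb (0.633%) and rises of that size for 74 (0.71%). Calls in either direction made up 28.4% of genes under 100 kb and 50.5% of longer ones. The 2 groups did not overlap in 4571 genes under 100 kb (43.9%). Over all transcripts 2322 rose (13.1%) and 3330 fell (18.8%), or 31.9% in all. These splits depend on scaling. Centring each library on its median gave 2535 higher and 1186 lower genes under 100 kb, with a median of 0.07, and quantile normalization gave 2288 and 1353. Over transcripts the same scalings gave 4206 and 2802, and 3797 and 3075. Without control library 2 the calls among genes under 100 kb dropped to 836 higher and 1026 lower.

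The lists of genes below are read against the 13.6% and 14.8% of genes under 100 kb. The share of members that fell was 83.1% for histones, 81.5% for mitosis, 69.2% for erythroid genes, 53.6% for cell cycle inhibitors and exit, 50% for cholesterol synthesis, 48.6% for cortical transcription factors and 43.5% for DNA replication. The list of cell cycle inhibitors and exit also holds D cyclins and E2f factors, which drive the cycle. The share that rose was 62.5% for Cajal-Retzius markers, 46.2% for microglia markers, 42.1% for neuropeptides, 40.9% for imprinted genes, 40.0% for epithelial junctions, 39.5% for ribosomal proteins and 37.9% for p53 targets. Of the neuropeptide genes 26.3% fell. A mean of at least 2 RPKM left 4 rises of 5 for Cajal-Retzius markers, 4 of 6 for microglia markers and 4 of 8 for neuropeptides. Imprinted genes kept 6 of 9, epithelial junctions 6 of 8 and p53 targets 6 of 11, while ribosomal proteins had 31 against 30. Genes under 0.5 RPKM in control passed the filter only through a higher level in the homozygous group, which holds for several factors of other brain regions and, among others, for Elovl7, Wnt3, Dlk1, Irs4, Cldn3, Mirg and Bag3 below. The same holds for Th, Cep295nl, Olig3, Plcd4, Ackr4 and Padi4 among the largest rises. Such genes had to be higher, so their place among the tested members lends no weight to a list's count of rises. Since tissue was measured in bulk, fewer cells of a type and less RNA per cell cannot be told apart in any of these lists.

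**Figure D1:**
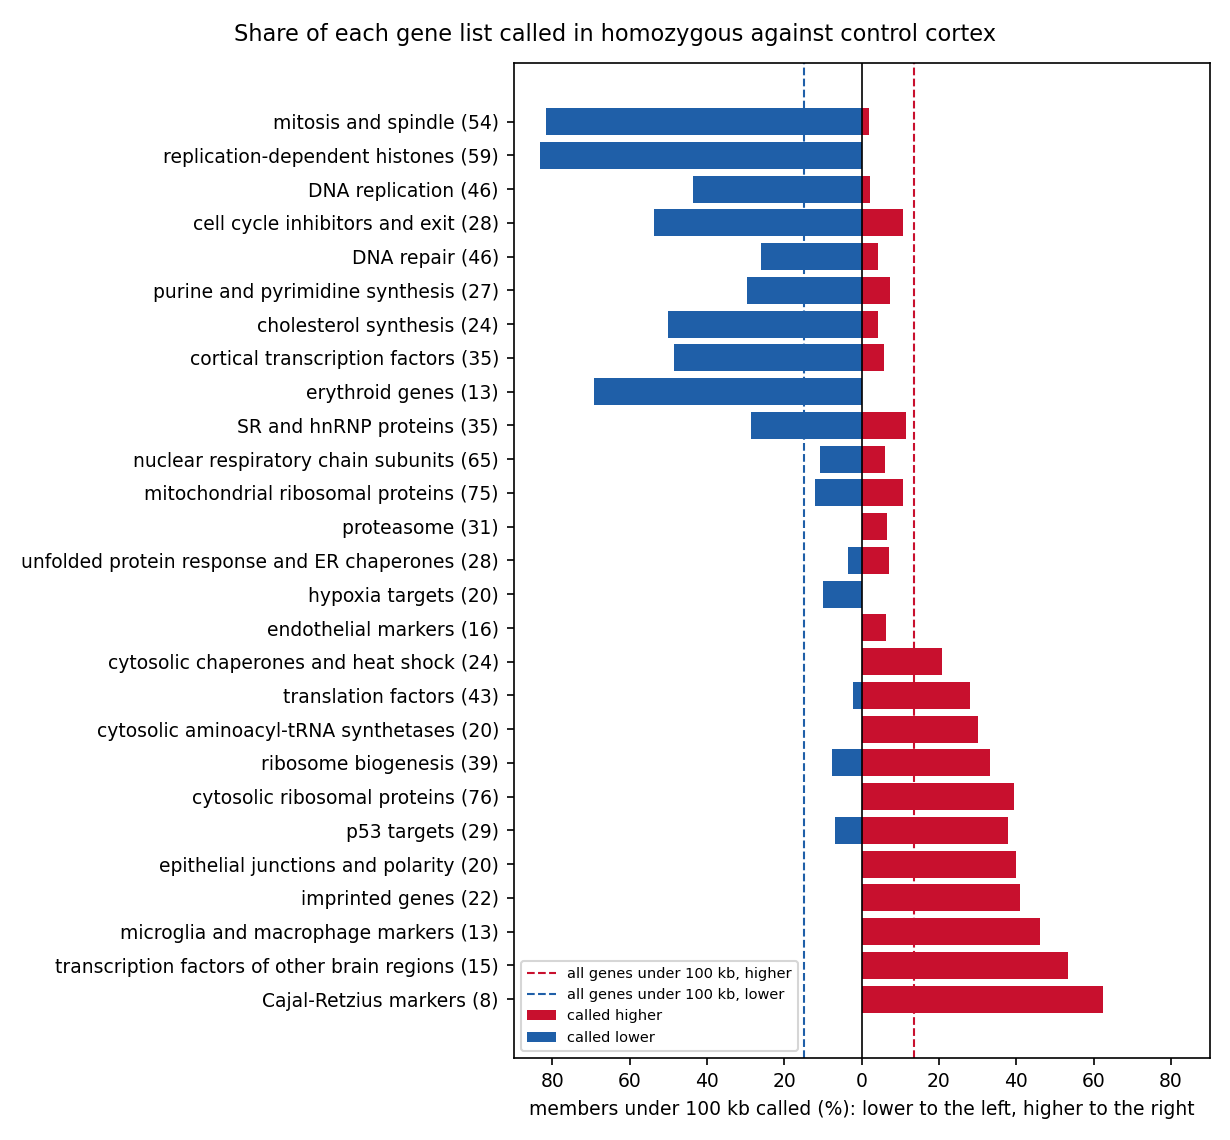
Bars give the percentage of the tested members under 100 kb (number in brackets) called lower (blue, to the left) or higher (red, to the right) in homozygous against control cortex; dashed lines mark 14.8% and 13.6% of all genes under 100 kb. The bar of mitosis and spindle genes reaches 81.5% to the left and that of cytosolic ribosomal proteins 39.5% to the right. The bar of transcription factors of other brain regions (53.3% to the right) is partly fixed by the filter. It is not to be read against the dashed lines.

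Most genes of the mitotic machinery fell. Of 54 mitosis and spindle genes under 100 kb, 44 fell and 1 rose, and the median change was -0.43 on the log2 scale. Cdk1, the kinase that starts mitosis, was at 67.9, 68.7 and 69.6 RPKM in control and at 45.0, 48.5 and 40.2 RPKM in homozygous libraries (log2 change -0.62 ± 0.07 SE, adjusted p = 0.000141). Cenpa, the histone that marks the centromere, was at 32.1, 36.2 and 32.5 RPKM against 19.8, 21.1 and 17.5 RPKM (-0.77 ± 0.08 SE, adjusted p = 8.6e-05). In both genes every homozygous library lay under every control, and the 3 controls lay close together. The kinetochore subunit Spc25 fell by 0.64 on the log2 scale, the spindle kinase Aurka by 0.62 and the DNA topoisomerase Top2a by 0.57. The securin gene Pttg1, whose product keeps separase inactive until anaphase, was the only member called higher (5.82 ± 0.331 against 4.75 ± 0.305 RPKM, SD, n = 3 each, limma adjusted p = 0.0277), a call lost in the fit of all 9 libraries, without control library 2 and without homozygous library 2 or 3. Against the control mean, the median of the list lay at -0.45, -0.30 and -0.54 in homozygous libraries 1, 2 and 3, and between -0.06 and 0.04 in the controls. Homozygous library 2 thus showed the smallest fall.

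Promoters of this group are shown because many of its genes fell together and because mitotic genes are known for CCAAT boxes, bound by NF-Y, and for the CHR, an element bound by complexes that switch mitotic genes on and off with the cell cycle. The 250 bases before the start are printed for the minus or plus strand of the gene, 5′ to 3′, from the RefSeq promoter table (GRCm38.p6): Cdk1 chr10:69352913-69353162 (minus strand) and Cenpa chr5:30666636-30666885 (plus strand). Capitals mark CCAAT boxes (CCAAT or ATTGG) and CHR elements (TTTGAA or TTCAAA).
Cdk1: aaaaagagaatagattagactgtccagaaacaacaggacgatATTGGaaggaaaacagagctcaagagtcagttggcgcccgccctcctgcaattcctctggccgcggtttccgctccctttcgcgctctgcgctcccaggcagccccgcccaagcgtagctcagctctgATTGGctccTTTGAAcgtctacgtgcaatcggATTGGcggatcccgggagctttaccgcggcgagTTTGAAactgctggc
Cenpa: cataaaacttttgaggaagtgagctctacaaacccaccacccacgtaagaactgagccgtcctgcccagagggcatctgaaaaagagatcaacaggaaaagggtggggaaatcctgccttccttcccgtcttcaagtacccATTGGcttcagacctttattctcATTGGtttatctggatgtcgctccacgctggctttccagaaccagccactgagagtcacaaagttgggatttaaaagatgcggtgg
The Cdk1 window holds 3 CCAAT boxes and 2 CHR elements, and the Cenpa window 2 CCAAT boxes. Both strands were searched in the 27025 genes of the table. A CCAAT box stood in 34.5% of these windows and in 37.5% of the 9667 tested genes with a window. A CHR stood in 16.3% and 10.3%, and a CHR and a CCAAT box shared a base in 34 windows of the table, neither of those printed. Among mitosis and spindle genes with a window, 33 of 46 (71.7%) held a CCAAT box and 15 of 46 (32.6%) a CHR. Members called lower held a CCAAT box in 26 of 36 cases, and members not called in 7 of 9. For the CHR these were 13 of 36 and 2 of 9. Neither difference was tested.

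Genes that make and repair DNA fell less evenly. Of 46 DNA replication genes, 20 fell and 1 rose (median -0.20). Gins1 and Cdc45, parts of the helicase that opens the double strand, fell by 0.55 and 0.51, and Orc3 of the origin recognition complex rose by 0.27 on the log2 scale. The count of falls dropped to 10 without control library 2, 13 without homozygous library 1 and 11 without homozygous library 3, and to 11 with median centring. Of 27 genes of purine and pyrimidine synthesis 8 fell and 2 rose, and its median of -0.04 turned to 0.02 with median centring. The largest falls there were in enzymes of the DNA building blocks. Thymidine kinase Tk1, which recycles thymidine during S phase, was at 25.1, 25.1 and 25.7 RPKM in control and 13.4, 13.8 and 11.4 RPKM in homozygous libraries (-0.95 ± 0.08 SE, adjusted p = 1.86e-05). Rrm2, the S-phase subunit of ribonucleotide reductase, was at 89.0, 86.6 and 79.2 RPKM against 44.0, 58.9 and 41.3 RPKM (-0.83 ± 0.12 SE, adjusted p = 0.000623). Neither gene overlapped between the groups, and homozygous library 2 was the highest of its 3 in both. Deoxycytidylate deaminase Dctd fell by 0.70 and the dUTPase Dut by 0.46, while Adsl of purine synthesis rose by 0.27.

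Of 46 DNA repair genes under 100 kb, 12 fell and 2 rose, with a median of -0.11. H2ax, the histone variant phosphorylated at breaks, fell by 0.82, and the recombination genes Rad54l, Rad51c and Bard1 fell by 0.76, 0.56 and 0.53 on the log2 scale. Brca1, the partner of Bard1, averaged 13.8 ± 1.56 RPKM in control and 14.5 ± 0.746 RPKM in the homozygous group (SD, n = 3 each, adjusted p = 0.574). All 59 replication-dependent histone genes tested are under 100 kb, and 49 fell with a median of -0.52. These genes are close copies whose reads can be shared. Leaving out any 1 library gave 36 to 54 falls, median centring or no filter 34, and quantile normalization 44. List medians were 0.13, 0.02 and -0.17 in control libraries 1, 2 and 3. In homozygous libraries 1, 2 and 3 they were -0.30, -0.60 and -0.67. H2ac10 was at 369, 378 and 321 RPKM in control and at 259, 144 and 168 RPKM in homozygous libraries. Here homozygous library 1 showed the smallest fall, unlike the mitotic genes.

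The switch from G1 into S phase changed in both directions. Of 28 genes under 100 kb in the list of cell cycle inhibitors and exit, 15 fell and 3 rose, with a median of -0.27. This list also holds D cyclins and E2f factors, which drive the cycle, so its count is not one of inhibitors alone. Cdkn2c, an inhibitor of the G1 kinases Cdk4 and Cdk6, was at 6.29, 6.82 and 6.58 RPKM in control and at 2.67, 2.48 and 2.30 RPKM in homozygous libraries (-1.24 ± 0.08 SE, adjusted p = 5.55e-06). Cyclin D2 (Ccnd2), a partner of the same kinases, was at 120, 138 and 152 RPKM against 61.9, 75.6 and 65.5 RPKM (-1.01 ± 0.10 SE, adjusted p = 5.93e-05). The groups were far apart in both genes. Cyclin D1 (Ccnd1) went the other way, from 36.9, 38.5 and 34.4 RPKM to 53.9, 49.6 and 51.8 RPKM (0.50 ± 0.06 SE, adjusted p = 0.000251). Mean levels of Ccnd2 and Ccnd1 thus stood at 137 and 36.6 RPKM in control, but at 67.6 and 51.8 RPKM in homozygous cortex. E2f3 and E2f2, transcription factors that drive S-phase genes, fell by 0.56 and 0.55. The growth arrest gene Gadd45a rose by 0.71 and the inhibitor Cdkn1a by 0.54, at 1.07 ± 0.239 RPKM in homozygous cortex (SD, n = 3). Of 23 Polycomb genes, which keep developmental genes silent, 5 fell and 1 rose. Ezh2, the methyltransferase, fell by 0.51, Bmi1 by 0.46 and Mtf2 by 0.36.

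Genes of cholesterol synthesis fell in many cases. Of 24 genes under 100 kb, 12 fell and 1 rose, and the median change was -0.25 on the log2 scale. The groups did not overlap in 17 of these 24, and in 43.9% of all genes under 100 kb. Cells make sterols from acetyl-CoA through mevalonate, and the SREBP factors raise the enzymes together when sterols are low. Insig1, which retains SREBP in the endoplasmic reticulum and is itself an SREBP target, was at 27.1, 26.8 and 28.6 RPKM in control and at 16.8, 18.6 and 15.6 RPKM in homozygous libraries (-0.68 ± 0.07 SE, adjusted p = 0.000105). Cyp51, which removes a methyl group from lanosterol, was at 63.2, 64.0 and 62.7 RPKM against 49.6, 50.3 and 46.6 RPKM (-0.37 ± 0.05 SE, adjusted p = 0.000517). Both were lower in every homozygous library, and Insig1 by the larger amount. The isomerase Idi1 of the mevalonate pathway fell by 0.36 on the log2 scale. Ebp, a sterol isomerase late in the pathway, was the member that rose, from 4.34, 4.29 and 5.12 RPKM to 8.02, 6.00 and 7.05 RPKM. List medians in the homozygous libraries were -0.22, -0.15 and -0.26 against -0.04 to 0.07 in control. Leaving out any 1 library gave 9 to 13 falls, and median centring 11.

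Promoters of Insig1 and Cyp51 are printed as examples of a sterol-regulated gene and of a pathway enzyme, with the same source and capitals: Insig1 chr5:28071162-28071411 (plus strand) and Cyp51 chr5:4104698-4104947 (minus strand).
Insig1: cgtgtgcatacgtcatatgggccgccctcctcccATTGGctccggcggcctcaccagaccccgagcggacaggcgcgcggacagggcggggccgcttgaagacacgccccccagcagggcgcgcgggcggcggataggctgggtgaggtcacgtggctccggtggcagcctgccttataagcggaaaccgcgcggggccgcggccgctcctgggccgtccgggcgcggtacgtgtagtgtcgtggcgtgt
Cyp51: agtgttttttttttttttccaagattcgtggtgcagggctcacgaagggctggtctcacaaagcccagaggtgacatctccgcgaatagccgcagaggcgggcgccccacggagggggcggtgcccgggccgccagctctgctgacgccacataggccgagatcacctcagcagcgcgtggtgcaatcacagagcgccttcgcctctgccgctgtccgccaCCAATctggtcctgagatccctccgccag
Each of these windows holds 1 CCAAT box. Of the 17 cholesterol genes with a window 14 (82.4%) held a CCAAT box, 7 of 8 among those called lower and 6 of 8 among those not called. The strict sterol element TCACNCCAC, searched on both strands, stood in 1.04% of all windows and in 0 of these 17.

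Fatty acid genes were called about as often as all genes under 100 kb (14.8% lower, 13.6% higher). Of 17 under 100 kb 3 fell (17.6%) and 2 rose (11.8%), with a median of -0.04 that turned to 0.03 with median centring. Acsl3, which activates long-chain fatty acids, was at 34.4, 36.2 and 38.1 RPKM in control and 20.4, 19.8 and 18.9 RPKM in homozygous libraries (-0.86 ± 0.06 SE, adjusted p = 9.19e-06). Fabp7, the fatty acid binding protein of radial glia, fell by 0.43. The elongase Elovl7 was hardly present in control at 0.147, 0.168 and 0.216 RPKM and reached 1.25, 1.02 and 1.44 RPKM in homozygous libraries (1.35 ± 0.11 SE, adjusted p = 1.7e-05). Fasn, the fatty acid synthase itself, had a log2 change of -0.10 that did not pass.

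**Figure D2:**
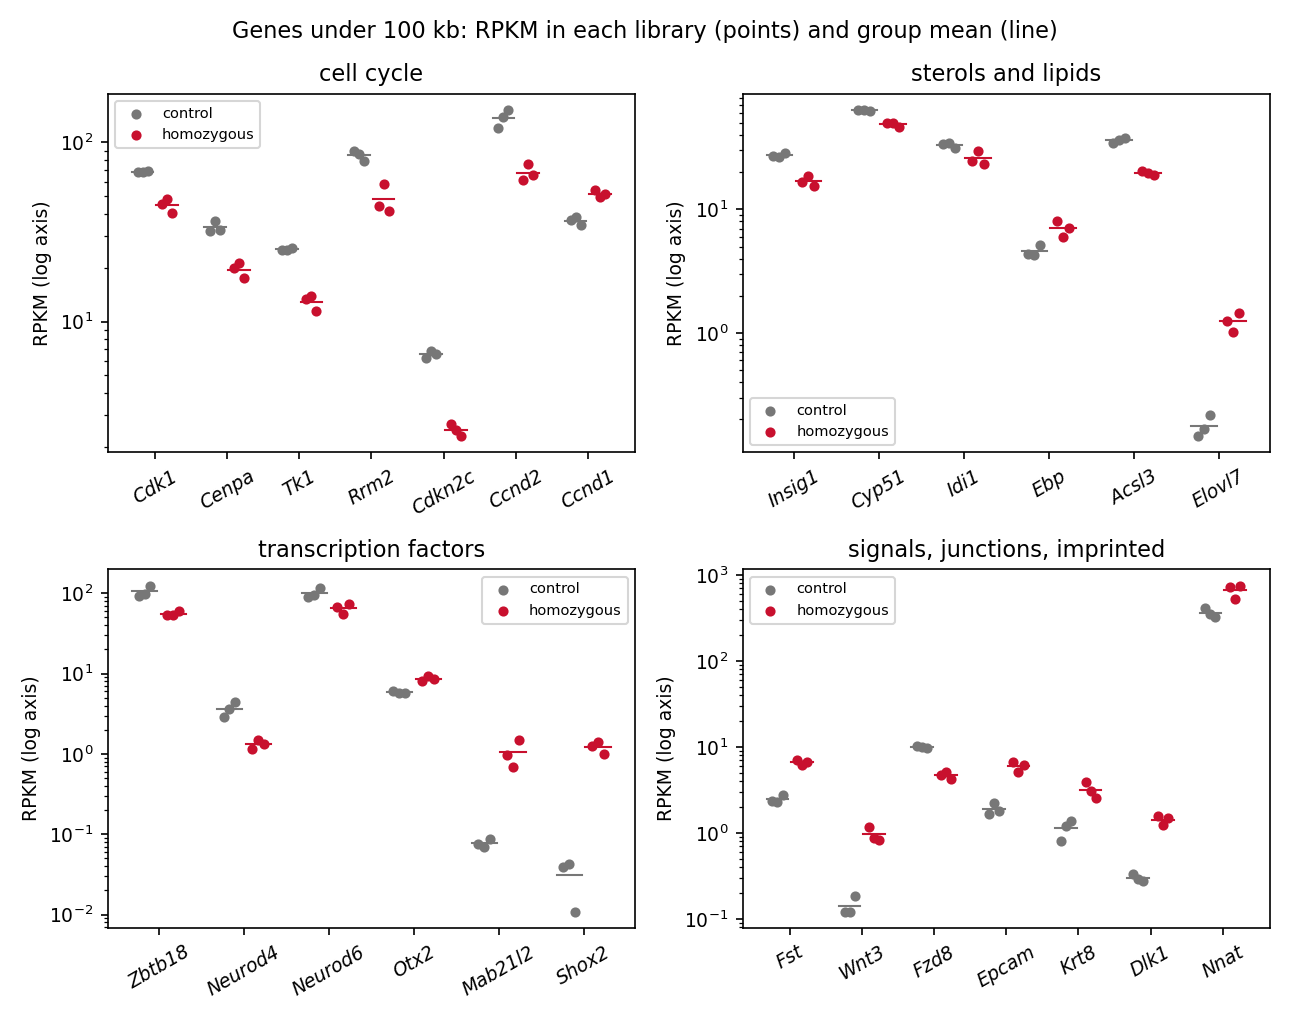
RPKM on a log axis for named genes under 100 kb in the 3 control (grey) and 3 homozygous (red) libraries, with group means as lines. Points of the 2 groups are separate in each gene drawn; Ccnd1, Ebp and Otx2 lie higher in homozygous libraries, and Elovl7, Mab21l2 and Shox2 lie at or under 0.216 RPKM in control.

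Many transcription factors of the cortex fell, and several of other brain regions rose from low levels. Of 35 cortical transcription factors under 100 kb, 17 fell and 2 rose (median -0.33), with 5 rises under median centring or quantile normalization. Zbtb18, a repressor needed for cortical neuron differentiation, was at 91.8, 98.4 and 124 RPKM in control and at 54.1, 53.1 and 59.7 RPKM in homozygous libraries (-0.90 ± 0.10 SE, adjusted p = 0.000182). The proneural factor Neurod4 fell from 3.64 ± 0.801 to 1.32 ± 0.160 RPKM and Neurod6, a factor of young excitatory neurons, from 100 ± 13.2 to 65.0 ± 8.81 RPKM (SD, n = 3 each). Control library 3 was the highest and the groups did not overlap in each of these 3 genes. Neurog2 fell too, by 1.34, and Id4 by 0.46. Tbr1, the factor of deep-layer and Cajal-Retzius neurons, rose by 0.31 (adjusted p = 0.0161, lost without homozygous library 3), and Pou3f1 rose by 0.44 (adjusted p = 0.0111, lost without control library 2). Emx2 and Pax6 had log2 changes of -0.07 and 0.03 that did not pass. Summed RPKM of the 40 listed factors was 1040 to 1270 in control and 823 to 875 in homozygous libraries.

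Of 56 transcription factors of the diencephalon, midbrain and hindbrain, 39 were below the filter, so the tested ones include genes that passed through their level in the homozygous group. Of the 15 tested under 100 kb, 8 rose and 0 fell, a count that the filter partly fixes and that is not read against the background; with a mean of at least 2 RPKM it was 4. Shox2, a homeobox gene of the thalamus, was at 0.0391, 0.0427 and 0.0109 RPKM in control and at 1.27, 1.40 and 0.996 RPKM in homozygous libraries (1.69 ± 0.10 SE, adjusted p = 4.55e-06). Mab21l2, known from eye and midbrain, was at 0.0754, 0.0701 and 0.0881 RPKM against 0.972, 0.688 and 1.48 RPKM (1.39 ± 0.16 SE, adjusted p = 0.000183). Control libraries were near 0 in both and homozygous libraries were all near 1 RPKM. Otx2, a factor of the forebrain-midbrain and the choroid plexus, rose from 5.87 ± 0.190 to 8.63 ± 0.589 RPKM (SD, n = 3 each). Lhx5 and Barhl2, also in the list of Cajal-Retzius markers, rose by 1.16 and 1.09. Summed over all 56 factors, the level was 42.6 to 42.7 RPKM in control and 61.9 to 65.8 RPKM in homozygous libraries, and 26 members stayed under 0.1 RPKM in all 6. Atoh1 of the hindbrain was at most 0.00733 RPKM, and the noradrenergic gene Dbh was listed at 0 in all 6 libraries. Whether the dissected piece held other regions was not tested. Ventral telencephalic factors, a measure of the neighbouring ganglionic eminence, summed to 34.1 to 54.8 RPKM in control and 31.9 to 42.3 RPKM in homozygous libraries. Of 10 tested under 100 kb 0 rose and 1 fell (median -0.29), and of 4 longer ones 3 rose and 1 fell (median 0.74). Under 100 kb, medians against the control mean were 0.46, -0.07 and -0.34 in control libraries 1, 2 and 3. In the homozygous libraries they were -0.24, -0.36 and -0.26.

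Many genes of the protein synthesis machinery rose, by small amounts. Of 76 cytosolic ribosomal protein genes 30 rose and 0 fell, with a median of 0.14. Rpl4 was at 651, 691 and 733 RPKM in control and 805, 827 and 852 RPKM in homozygous libraries (0.26 ± 0.06 SE, adjusted p = 0.00901). Rpl17 rose by 0.27 and Rpl14 by 0.29, and homozygous libraries lay above all controls in these 3 genes. The count depends on single libraries: it was 8 without control library 2, 18 without control library 3, 11, 15 and 19 without homozygous libraries 1, 2 and 3, and 16 with no filter, against 51 with quantile normalization. List medians of 0.18, 0.14 and 0.10 in the homozygous libraries and -0.01 to 0.02 in control show the shift in each library. These genes have many processed copies in the genome, so their reads may be shared.

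Of 39 genes of ribosome biogenesis 13 rose and 3 fell (median 0.13), with 7 rises without control library 1 or without homozygous library 3, and 22 with median centring. Polr1d, a subunit of RNA polymerases I and III, was at 41.5, 44.1 and 48.0 RPKM in control and 67.4, 64.2 and 69.0 RPKM in homozygous libraries (0.58 ± 0.06 SE, adjusted p = 0.00013). Utp3 of the small-subunit processome rose by 0.41. Mycn, a driver of this program in neural progenitors, fell by 0.42. Of 43 translation factors 12 rose and 1 fell (median 0.12), with 20 rises under median centring and 21 under quantile normalization. Eif2b3, which recharges the initiation factor eIF2 with GTP, rose from 15.2 ± 0.663 to 22.2 ± 1.17 RPKM and Eif1a, which scans for the start codon, from 19.4 ± 0.560 to 27.9 ± 1.27 RPKM (SD, n = 3 each). Eif4a2 rose by 0.43 and Eif3g by 0.37, and Eif4h fell by 0.23. Of 20 cytosolic tRNA synthetases 6 rose and 0 fell, led by Dars at 0.39 and Sars at 0.33. Of 24 cytosolic chaperones 5 rose and 0 fell, among them the chaperonin subunit Cct3 at 0.23, Hsp90aa1 at 0.25, Hspa4 at 0.27 and the co-chaperone Bag3 at 0.51 on the log2 scale, while quantile normalization gave 14 rises, and median centring 11.

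Of 31 proteasome genes 2 rose and 0 fell, and of 28 genes of the unfolded protein response 2 rose and 1 fell, shares under the 13.6% and 14.8% of all genes under 100 kb. Median centring gave 5 and 6 rises. Hspa5, the main chaperone of the endoplasmic reticulum, was at 204, 210 and 207 RPKM in control and 208, 212 and 210 RPKM in homozygous libraries (log2 change 0.02 ± 0.05 SE, adjusted p = 0.787). Of 20 hypoxia targets 0 rose (3 with median centring) and 2 fell, and Vegfa was at 5.38 ± 0.377 and 6.02 ± 0.366 RPKM (SD, n = 3 each, adjusted p = 0.185). Of 32 targets of Atf4, the factor of the integrated stress response, 5 were higher and 5 lower. These shares of 15.6% each were near those of all genes under 100 kb. The counts were 10 and 4 with median centring and 9 and 4 with quantile normalization. Atf4 mRNA itself was at 36.3, 42.6 and 44.2 RPKM against 20.1, 32.2 and 25.2 RPKM (-0.68 ± 0.15 SE, adjusted p = 0.00674), its target Psph fell by 0.44, and Asns rose by 0.43. Of 27 antioxidant genes 6 rose (10 with median centring or quantile normalization) and 1 fell. Gsta4, which detoxifies lipid peroxidation products, was at 59.2, 63.8 and 65.1 RPKM in control and at 134, 112 and 123 RPKM in homozygous libraries (0.97 ± 0.07 SE, adjusted p = 1.26e-05). Srxn1 rose by 0.58 and catalase (Cat) by 0.34, and Gclc of glutathione synthesis fell by 0.40.

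Of 36 lysosomal genes 9 rose and 3 fell, but 1 rise was counted without control library 2, 5 without homozygous library 3 and 15 with median centring. Lamp2 of the lysosomal membrane fell by 0.54, and the call of the protease gene Ctsd, which rose by 0.37 (adjusted p = 0.0145), was lost without control library 2. The summed level of 17 microglia markers was 41.6 to 47.9 RPKM in control and 52.1 to 68.1 RPKM in homozygous libraries, with 6 of 13 under 100 kb called higher (3 without control library 1, 10 with median centring). The part of microglia in the lysosomal values was not tested.

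Targets of p53 rose in 11 of 29 cases and fell in 2 (median 0.14), and 6 rose among those with a mean of at least 2 RPKM. Those that trigger death at the mitochondrion, Bbc3 (Puma) and Pmaip1 (Noxa), were both low. Bbc3 was at 1.38, 1.34 and 1.15 RPKM in control and 4.20, 2.01 and 4.44 RPKM in homozygous libraries (1.12 ± 0.22 SE, adjusted p = 0.00452), and Pmaip1 at 1.28, 1.08 and 0.873 RPKM against 2.00, 1.96 and 2.42 RPKM (0.74 ± 0.12 SE, adjusted p = 0.00118). Homozygous library 2 was the lowest of its group in both, and also in Ccng1, Eda2r and Sesn2. In the Bcl2 and caspase list of 27 genes, 7 rose and 6 fell, median centring made this 12 and 2, and 4 rose and 3 fell without control library 2 or homozygous library 1. Hrk rose by 0.90 and Birc5, which also serves mitosis, fell by 0.46.

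**Figure D3:**
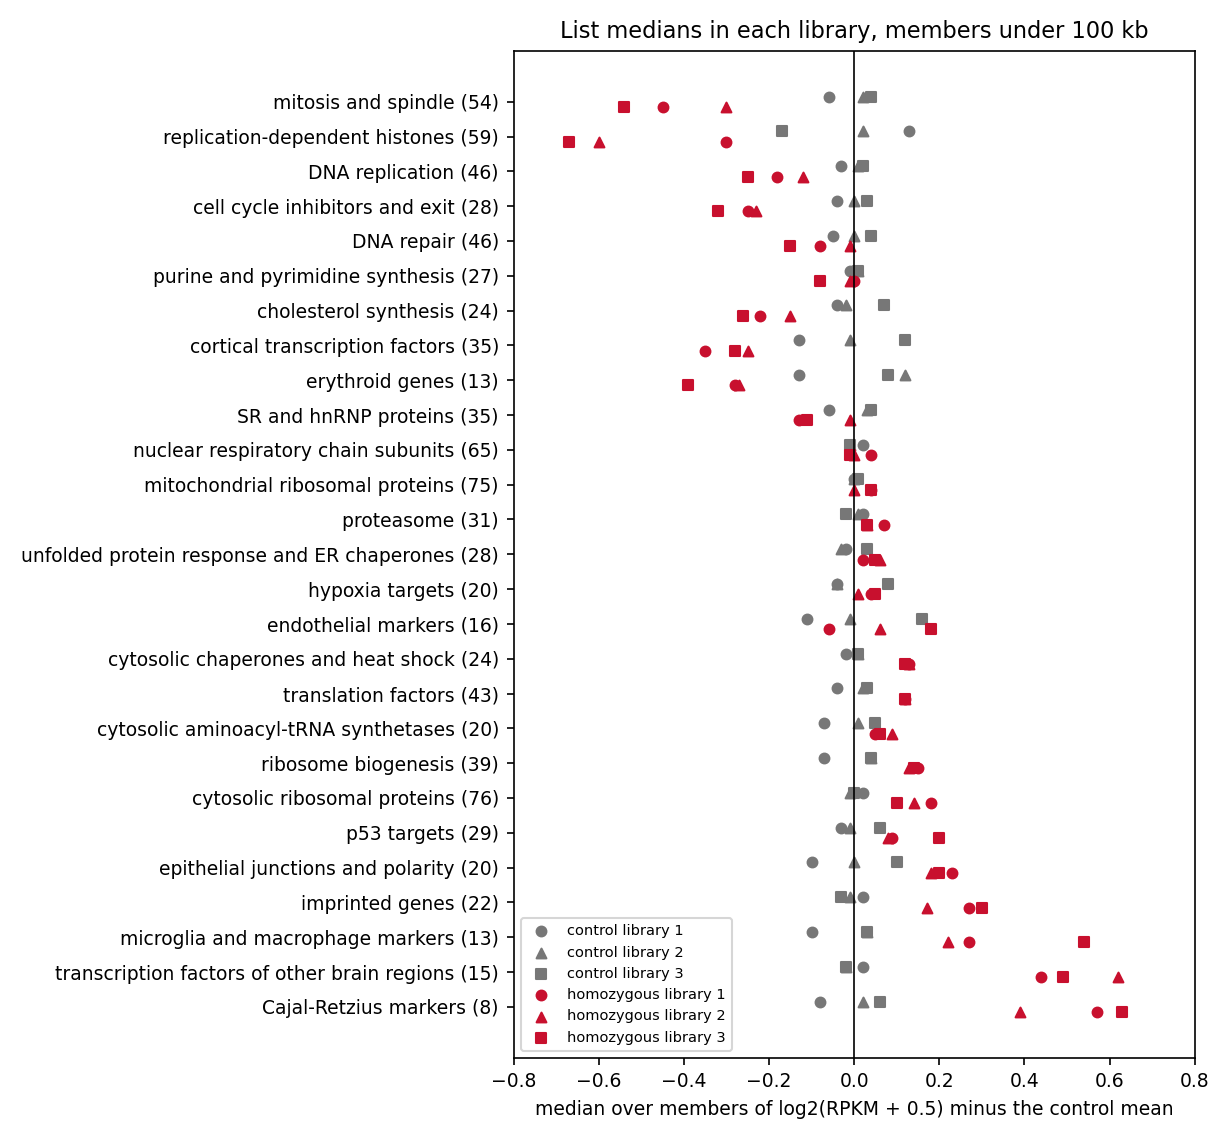
Median over the members under 100 kb of log2(RPKM + 0.5) minus the control mean of each gene, for each control (grey) and homozygous (red) library. Mitosis and spindle genes lie at -0.30 to -0.54 in the homozygous libraries, and the medians of respiratory chain, proteasome and hypoxia genes at -0.01 to 0.07.

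Signalling pathways had members called in both directions. In the Notch list, 7 of 27 genes rose and 4 fell (4 rises without homozygous library 3, 11 with median centring). The ligand Jag1 was at 6.72, 7.66 and 8.76 RPKM in control and 16.0, 14.1 and 14.9 RPKM in homozygous libraries (0.92 ± 0.09 SE, adjusted p = 9.15e-05). Dtx4, a ubiquitin ligase of the pathway, rose by 0.86 and the ligand Dll3 by 0.60, while Lfng, which modifies Notch, fell by 0.44 and Id2 by 0.65. The effectors Hes1 and Hes5 had log2 changes of -0.09 and -0.24 that did not pass.

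Of 32 genes of the Wnt list 9 rose and 3 fell, with 5 rises without control library 2 or homozygous library 1, and 6 falls without control library 1. The ligand Wnt3, which passed the filter only through the homozygous group, was at 0.122, 0.122 and 0.186 RPKM in control and at 1.19, 0.887 and 0.821 RPKM in homozygous libraries (1.18 ± 0.11 SE, adjusted p = 4.84e-05). Frizzled receptors moved in opposite directions. Fzd8 lay between 9.78 and 10.3 RPKM in control libraries and at 4.76, 5.12 and 4.29 RPKM after loss (-1.02 ± 0.08 SE, adjusted p = 1.49e-05), while Fzd10 rose by 1.10 and Fzd7 by 0.75. Fzd8 thus fell from above Fzd7 to below it, with Fzd7 at 3.61 ± 0.489 and 6.36 ± 0.241 RPKM (SD, n = 3 each). The inhibitors Nkd1 and Dkk3 fell by 0.70 and 0.61. Axin2, a common readout of the canonical pathway, was at 7.06 ± 0.893 and 7.58 ± 0.987 RPKM (SD, n = 3 each, adjusted p = 0.545).

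In the Hedgehog list of 8 tested genes under 100 kb, 3 fell and 1 rose. The co-receptor Cdon was at 25.6, 28.8 and 34.2 RPKM in control and 16.3, 17.4 and 14.9 RPKM in homozygous libraries (-0.84 ± 0.10 SE, adjusted p = 0.000245), and the transducer Smo fell by 0.42. Ptch1, the Hedgehog receptor and a target of the pathway, rose from 1.84 ± 0.159 to 3.01 ± 0.395 RPKM (SD, n = 3 each). In the BMP and TGF-beta list 5 of 26 rose (8 with median centring) and 2 fell. Follistatin (Fst), a secreted trap of activin, was at 2.36, 2.29 and 2.80 RPKM against 7.11, 6.19 and 6.65 RPKM (1.26 ± 0.09 SE, adjusted p = 1.14e-05). The ligand Gdf11 rose by 0.68 and the activin subunit Inhbb fell by 0.67. The groups did not overlap in any of these genes, which were named for large called changes. That was also so in 43.9% of all genes under 100 kb.

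Of 20 genes of FGF signalling and its feedback 3 rose and 2 fell, near the shares of all genes under 100 kb. Rises were 5 without control library 1, 8 with median centring and 7 with quantile normalization. The receptor Fgfr3 fell by 0.61 on the log2 scale, with control values spread from 34.6 to 52.2 RPKM. The ERK phosphatase Dusp6 was at 11.1, 10.9 and 12.2 RPKM in control and 19.3, 14.0 and 19.7 RPKM in homozygous libraries (0.59 ± 0.12 SE, adjusted p = 0.00468), and Spry1 rose by 0.35. In the insulin and IGF list 6 of 21 rose and 3 fell, with 3 rises and 1 fall when control library 2 or homozygous library 1 or 3 was left out, and 6 falls without control library 1. Igfbp5, which binds IGFs outside the cell, rose by 0.86 on the log2 scale, and Irs4, an adaptor of the insulin receptor, from 0.338 ± 0.0726 to 1.01 ± 0.132 RPKM (SD, n = 3 each).

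**Figure D4:**
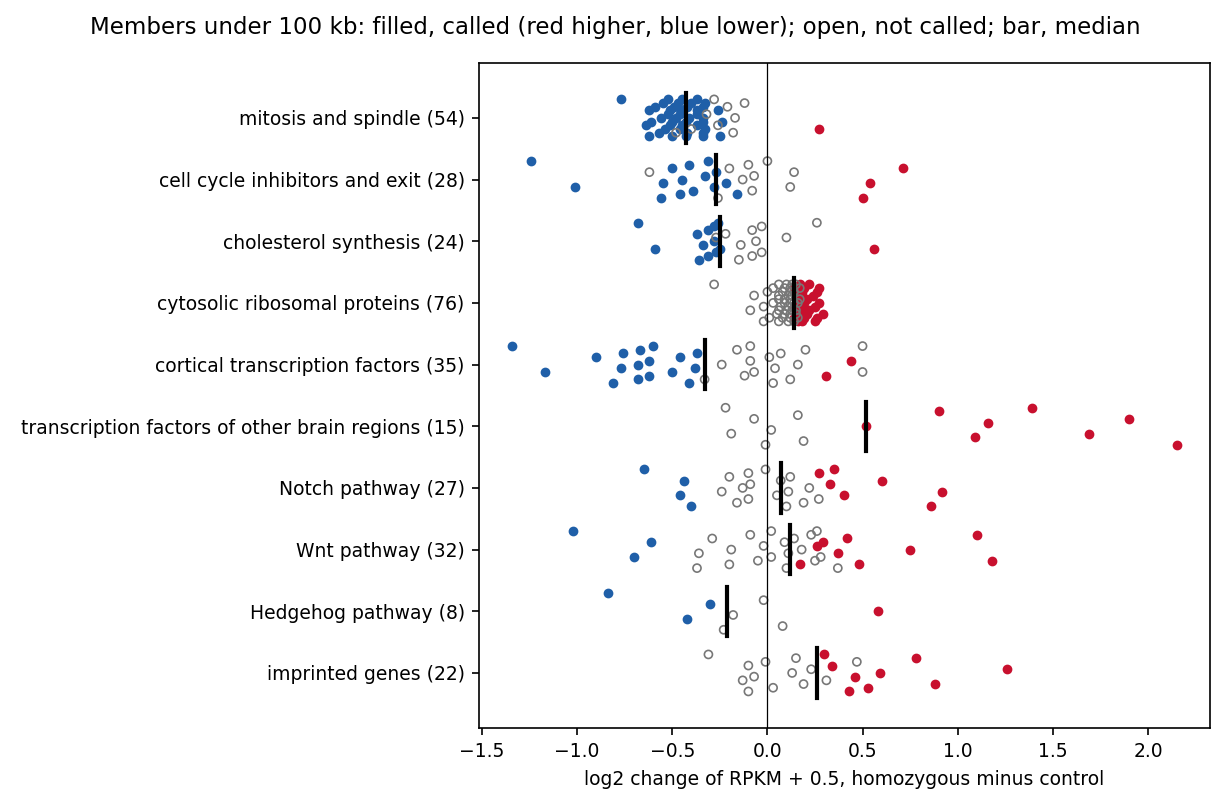
Each point is 1 tested gene under 100 kb placed at its log2 change, on 1 level for each list; filled points were called (red higher, blue lower), open points were not, and the black bar is the list median. Points of mitosis and spindle genes gather around -0.43 and those of ribosomal proteins around 0.14, while those of the Notch and Wnt lists spread to both sides.

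Epithelial genes and imprinted genes had no called falls among members under 100 kb. In the list of epithelial junctions and polarity 8 of 20 rose (median 0.23), and 13 did so with median centring or quantile normalization. Epcam, an adhesion molecule of epithelia, was at 1.65, 2.24 and 1.80 RPKM in control and 6.62, 5.08 and 6.13 RPKM in homozygous libraries (1.43 ± 0.12 SE, adjusted p = 2.49e-05). The keratin Krt8 was at 0.802, 1.22 and 1.39 RPKM against 3.88, 3.10 and 2.58 RPKM (1.17 ± 0.16 SE, adjusted p = 0.00055). Both groups stood well apart, at low levels. Claudin 3 (Cldn3) rose by 0.75 and the polarity gene Pard6b by 0.53. Cdh1, the classical epithelial cadherin, was at 0.173 to 0.395 RPKM in control and 0.227 to 0.487 RPKM in homozygous libraries, and Krt18, the partner of Krt8, at 2.80 to 4.57 and 4.32 to 4.98 RPKM, so that their groups overlapped.

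Of 22 imprinted genes under 100 kb, expressed from 1 parental copy, 9 rose and 0 fell (median 0.26). Nnat, a small membrane protein of neurons, was at 411, 356 and 321 RPKM in control and 730, 533 and 753 RPKM in homozygous libraries (0.88 ± 0.13 SE, adjusted p = 0.000925). Dlk1, a Notch-like ligand, was at 0.334, 0.295 and 0.276 RPKM against 1.56, 1.23 and 1.48 RPKM (1.26 ± 0.09 SE, adjusted p = 1.33e-05). Its neighbour on the maternal copy, the non-coding RNA Meg3, rose by 0.78, and Rian and Mirg of the same cluster by 1.31 and 0.64. Homozygous library 2 was the lowest of its group for Nnat, Dlk1, Meg3 and Rian. Grb10, an imprinted inhibitor of growth factor receptors that spans 107 kb, fell by 1.22. Igf2 and Cdkn1c, imprinted genes that regulate growth, had log2 changes of -0.10 and -0.13 that did not pass. Among the other host genes of small nucleolar RNAs, Snhg1 rose by 0.65 and Snhg7 fell by 0.51.

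Neuronal genes under 100 kb moved both ways. In the neuropeptide list 8 of 19 rose and 5 fell; rises were 4 without control library 2 and 5 when control library 1 or homozygous library 1 or 3 was left out. Cck was at 0.647, 0.738 and 1.40 RPKM in control and 4.44, 2.45 and 5.51 RPKM in homozygous libraries (1.67 ± 0.26 SE, adjusted p = 0.00114). Somatostatin (Sst), a peptide of interneurons, was at 2.11, 1.70 and 2.18 RPKM against 0.265, 0.329 and 1.25 RPKM (-1.26 ± 0.27 SE, adjusted p = 0.00609). Homozygous library 2 had the least Cck and library 3 the most Sst of their group. Tac1 rose by 0.97, with control library 1 at 1.83 RPKM and the other controls at 0.806 and 0.769 RPKM. In the list of neurotransmitter synthesis and transport, 15 of 32 genes were below the filter. Of the 16 tested under 100 kb, 6 rose and 2 fell. Rises were 3 without control library 2, and falls 1 without homozygous library 1 or 2. Gad1, which makes GABA, rose by 1.15 and the vesicular glutamate transporter Slc17a7 by 0.77. Th rose by 2.86, from 0.57, 0.202 and 0.198 RPKM in control to 5.33, 4.38 and 6.48 RPKM in homozygous libraries. It passed the filter only through the homozygous group. Of the other genes of dopamine neurons, the transporter Slc6a3 stayed at or under 0.0204 RPKM in all 6 libraries, and Slc18a2 was at 1.01 to 2.98 RPKM in control and 1.48 to 1.83 RPKM in homozygous libraries. Of 20 calcium-binding proteins 5 rose and 5 fell, against 7 and 4 with median centring or quantile normalization, and 3 fell when control library 2 or homozygous library 1 or 2 was left out. Cabp1, a calmodulin-like regulator of calcium channels, was at 12.6, 15.3 and 21.3 RPKM against 3.26, 4.36 and 3.73 RPKM (-1.95 ± 0.17 SE, adjusted p = 3.1e-05), while Calb1 rose by 2.04 and Necab2 by 1.20.

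Among cytoskeletal genes of neurons 4 of 28 rose and 8 fell; the falls dropped to 4 without control library 2, 5 without control library 3 or homozygous library 1, and 3 without homozygous library 2. The microtubule regulator Stmn4 was at 16.9, 17.1 and 19.2 RPKM in control and 33.4, 28.8 and 43.2 RPKM in homozygous libraries (0.95 ± 0.13 SE, adjusted p = 0.000451). Dpysl4 rose by 0.72 and the intermediate filament Ina by 0.52, while Prph, an intermediate filament of peripheral neurons, fell by 0.89. The pan-neuronal tubulin Tubb3 and the migration gene Dcx had log2 changes of -0.20 and 0.23 that did not pass.

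Of 65 nuclear respiratory chain genes under 100 kb 4 rose and 7 fell, with a median of 0.01. Of 75 mitochondrial ribosomal protein genes 8 rose and 9 fell, with a median of 0.03. Both lists lay under the 13.6% higher and 14.8% lower of all genes under 100 kb. Median centring turned the first count to 8 higher and 3 lower and the second to 23 and 4, and no respiratory chain gene was called higher without control library 2 or homozygous library 1. Single members were far from these medians. Mrps9 of the small mitochondrial subunit, which spans 54.5 kb, was at 35.9, 39.5 and 39.7 RPKM in control and 11.5, 11.2 and 10.2 RPKM in homozygous libraries (-1.76 ± 0.07 SE, adjusted p = 5.23e-07). Mrps6 and Mrps27, of 53.9 and 70.8 kb, fell by 1.10 and 0.93, and the complex I subunit Ndufa1, of 3.65 kb, fell by 0.65. In glycolysis 5 of 21 rose (8 with median centring or without control library 3) and 2 fell, led by the neuronal glucose transporter Slc2a3 at 1.79 and followed by Aldoa at 0.41, while Slc2a1 had a log2 change of 0.15 that did not pass.

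Of 35 SR and hnRNP genes 10 fell and 4 rose (median -0.07). Median centring turned this to 5 falls and 7 rises, and 5 fell without control library 2. Srsf4, an SR protein that promotes exon inclusion, had the largest fall of any gene under 100 kb named here apart from Sfpq: 23.7, 27.1 and 28.0 RPKM in control and 5.30, 5.99 and 6.73 RPKM in homozygous libraries (-2.04 ± 0.09 SE, adjusted p = 1.04e-06). The paralogs Tra2b and Tra2a moved apart. Tra2b was at 154, 151 and 148 RPKM against 114, 106 and 101 RPKM (-0.50 ± 0.06 SE, adjusted p = 0.000146), and Tra2a at 98.8, 96.8 and 97.9 RPKM against 130, 121 and 126 RPKM (0.36 ± 0.05 SE, adjusted p = 0.000499). Their order therefore reversed, and within each group the 3 libraries lay close together. Among paraspeckle and Sfpq-associated proteins, Pspc1 rose by 1.36, Rbm12 by 0.73, and Matr3, a nuclear matrix protein, by 0.58, while the cold-induced Rbm3 fell by 0.68 and Nono had a log2 change of 0.05 that did not pass. Of 41 core spliceosome genes 5 rose (12.2%) and 7 fell (17.1%), near the 13.6% and 14.8% of all genes under 100 kb. Rises were 2 when control library 2 or homozygous library 1 or 3 was left out. Of 29 Mediator genes 3 rose (10.3%) and 1 fell (3.45%), both under those shares, with 6 rises under median centring or quantile normalization.

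Markers of other cells were summed to show what moved alongside these groups. Endothelial markers summed to 94.3 to 119 RPKM in control and 102 to 126 RPKM in homozygous libraries, with 1 of 16 under 100 kb called higher, and 0 of 7 pericyte markers were called. Meningeal and fibroblast markers summed to 330 to 420 and 493 to 506 RPKM, of which Crabp2 alone took 37.7 ± 4.18 and 165 ± 15.2 RPKM (SD, n = 3 each). The median over the list was 0.09, the 2 called of 19 were Crabp2 and Dlk1, and Col1a1 was at 3.02 to 5.41 and 3.47 to 6.03 RPKM. Choroid plexus and hem markers summed to 428 to 666 and 440 to 527 RPKM, and 3 of 11 rose, among them Otx2 and Foxj1. Most of this sum was Ttr, at 371, 400 and 587 RPKM in control and 372, 455 and 453 RPKM in homozygous libraries. Cajal-Retzius markers summed to 58.0 to 64.1 and 78.4 to 90.6 RPKM, with 5 of 8 under 100 kb higher. Erythroid genes, a measure of blood, summed to 4020 to 4760 RPKM in control and 3310 to 3720 RPKM in homozygous libraries, with 9 of 13 lower, but 2 in the fit of all 9 libraries, and 5 without control library 2 or with quantile normalization. The part of blood, microglia or Cajal-Retzius cells in the gene groups above was not tested.

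The 20 steepest called falls under 100 kb, in lists or not, held several genes close to that limit: Ptn, a growth factor of 95.3 kb, fell from 126 ± 13.6 to 32.0 ± 2.75 RPKM, and Ergic1, of 96.2 kb, from 17.7 ± 0.712 to 5.19 ± 0.112 RPKM (SD, n = 3 each). The transcription factor Nfix (96.5 kb) fell by 1.32 and the mitochondrial carrier Slc25a12 (93.5 kb) by 1.34. Short genes were among them as well. Mt3, a brain metallothionein of 1.54 kb, was at 50.8, 47.3 and 52.0 RPKM in control and at 20.2, 19.9 and 19.1 RPKM in homozygous libraries (-1.32 ± 0.06 SE, adjusted p = 8.37e-07). The small GTPases Gem and Rnd1, of 10.5 and 8.26 kb, fell by 1.47 and 1.36, the melanin enzyme gene Dct by 1.80, the ubiquitin ligase Znrf2 by 1.37 and Mir9-3hg, a host transcript of the neural microRNA miR-9, by 1.50. The remaining steep falls were Srl at -1.52, Dleu7 at -1.52, Msantd2 at -1.51, Mmd2 at -1.41, the calcium channel partner Cacng4 at -1.37 and Scara3 at -1.37.

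On the rising side, uridine phosphorylase Upp1 was at 0.758, 0.867 and 0.916 RPKM in control and at 6.31, 5.20 and 5.44 RPKM in homozygous libraries (2.19 ± 0.10 SE, adjusted p = 8.47e-07). The phospholipase Plcd4, the chemokine scavenger Ackr4 and the histone deiminase Padi4 went from means of 0.285, 0.0450 and 0.0987 RPKM to 2.01, 1.07 and 1.21 RPKM. Fzd10os, antisense to Fzd10, rose by 1.65 beside the 1.10 of Fzd10, and since the sources used here do not state whether counting used strand, reads of the 2 cannot be told apart. The small nucleolar RNA DQ267100 rose by 1.67. Crabp2, Olig3, Cep295nl, Samd3, Mab21l1, Gm10421, Robo3, Pdlim3 and Eda2r made up the rest of the 20 largest rises together with Th, Calb1, Slc2a3, Shox2 and Cck. In each of these 40 genes the groups did not overlap, because genes with overlap were not eligible. Th, Cep295nl, Olig3, Shox2, Plcd4, Ackr4 and Padi4 averaged under 0.5 RPKM in control and passed the filter only through the homozygous group.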

How the data were processed

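Ribosomal RNA was removed and stranded libraries were made from total RNA, per the labels' protocols. RPKM values per RefSeq transcript were deposited by the authors, 1 file for each library; the submitters' processing notes name CASAVA 1.8.2, TopHat 1.4.1 and the mm9 build, and the sources used here do not name the program or strand setting behind the RPKM. No read counts were used. All columns of values mapped to a sample.

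Values were taken as log2(RPKM + 0.5) for transcripts whose mean over the 6 libraries reached 0.5 RPKM and were compared with limma 3.58.1 in R 4.3.3 (lmFit, then eBayes with a trend), with Benjamini-Hochberg adjustment over all 17745 transcripts and calls at an adjusted p below 0.05. For each gene 1 transcript was kept, a coding one where there was one, and then that of the highest mean. Gene spans came from GRCm38 annotation, not mm9. Tables were made with Python 3.11.15 and pandas 2.3.3. On simulated data with 200 of 17745 transcripts changed, 56.06% were found at a log2 change of 0.5 and 93.89% at 1, with 4.344% and 4.721% of calls false. Noise was drawn separately for each transcript, without shifts of whole libraries. In the data 31.9% of transcripts were called, a far larger share, so these rates need not hold for this comparison.

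The lists, the comparison and the members were chosen with earlier results of these data known. Named genes were Sfpq, up to 4 called members in each direction of a list by size of change, the best known member of a list, and the 20 largest rises and falls under 100 kb whose higher group averaged 1 RPKM or more and whose groups did not overlap. A few further list members and markers were chosen after their values were seen (Krt18 and Cdh1 among them). Alternatives were pseudocounts of 0.1 and 1, no filter or a mean of 2 RPKM, quantile normalization, median centring, all 9 libraries, a replicate block, a span limit of 50 kb, the transcript of largest span, and each library left out. Values of some list members are not reported here.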

Additional observations from a re-analysis of the deposited data

How the results depend on the processing

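Scaling moved the counts of rises most. With quantile normalization 3797 transcripts and 2288 genes under 100 kb were called higher, and with median centring 4206 and 2535, against 2322 and 1417 without further scaling. Leaving out 1 library at a time gave 1363 to 2532 transcripts higher and 2444 to 3366 lower, and 836 to 1513 genes under 100 kb higher and 1026 to 1524 lower; the lowest of these came without control library 2. The cause was not tested. For Sfpq in each library compared, the log2 change ranged from -2.93 to -2.80 over all alternatives. Of 453 named genes called, 357 kept their call without control library 2, 431 with median centring, 442 with quantile normalization and 396 with no filter. No call among these reversed in those fits, with other pseudocounts, with all 9 libraries, with the block or with any 1 library left out, and none of the 389 with a mean of at least 2 RPKM did; the span limit and the choice of transcript were varied for counts only.

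Replicate numbers are shared between the groups, but they were not taken as pairing: deviations from the group means correlated at 0.386, 0.0969 and 0.320 for numbers 1, 2 and 3, although every library correlated best with its own number. A fit with the replicate number as a block called 3381 transcripts higher and 4183 lower, and 2054 and 2024 genes under 100 kb. Depth is known only from steps between low values, so no interval is given for low levels.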
